A study of Mus musculus with 8 samples.

Results

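Genes of bone and cartilage other than the collagens were followed in the olfactory mucosa of newborn mice that had lost, or kept, the transcription factor gene Emx2 in their olfactory sensory neurons (OSNs). The list held 10 genes chosen by name: Ibsp, Sp7, Runx2, Spp1, Alpl, Phex, Dmp1 and Mepe for bone, Acan and Matn1 for cartilage. A gene was measured where a transcript cluster, the unit in which the array reports a gene, was annotated with that gene alone. Each of 8 genes had 1 such cluster among the 21789 clusters with exactly 1 gene, and no signal of Runx2 or Spp1 was analysed here.

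The samples were 8 mice of a mixed 129 x C57BL/6J background at postnatal day 1, with the mucosa of 1 mouse on each Affymetrix GeneChip Mouse Gene ST array. The 4 knockouts were OmpCre:Emx2(fl/fl). Their 4 control littermates carried either OmpCre:Emx2(fl/+), in controls 1 to 3, or Emx2(fl/fl) with no Cre, in control 4, so all 8 mice had at least 1 floxed copy. Mature OSNs are where the Omp locus drives Cre, and no label names a deletion in bone or cartilage cells. The targeted gene, Emx2, was between 10.14 and 10.34 log2 in the knockouts, below all controls (10.58 to 10.89). The difference was -0.55 ± 0.08 (SE), with a limma p of 7.37e-05 before adjustment over all tested clusters and 0.201 after it. Omp, the defining marker of mature OSNs, was between 12.56 and 13.43 log2 in the controls and between 12.60 and 12.91 in the knockouts. In OmpCre mice the Cre gene sits within the Omp locus, so every mouse but control 4 had an altered Omp copy. Control 4 had an Omp signal of 13.29 and control 1, with Cre, had 13.43. The part of this altered copy in the Omp signal was not tested. Array medians ran from 8.64 to 8.68. Control 2 stood apart on the leading principal component, which held 32.5% of the variance, with a score of 32.9 where the other mice had -11.8 to 6.11, and the members' differences and the list medians are therefore given without it as well. The mean of 3 Y-linked genes was high in controls 2, 3 and 4 and knockout 3 (centred values of 1.49 to 1.68), low in knockouts 1, 2 and 4 (-1.54 at the highest) and intermediate in control 1 (-0.96). The labels give no sex for single mice, these signals were not balanced between the groups, and whether the RNA of control 1 was mixed is not known, so the members' differences that leave control 1 out are given where they move.

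The nasal cavity of a newborn mouse is framed by growing cartilage and by turbinate bone that is still mineralising, and the mucosa adheres to both. Osteoblasts lay down a collagen matrix and the enzymes and acidic phosphoproteins that control its mineral, and some are buried in it as osteocytes. Chondrocytes surround themselves with large proteoglycans and matrilins. None of these cells belongs to the olfactory epithelium. In RNA from whole tissue, fewer cells of a type and less RNA per cell cannot be told apart.

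All 8 measured genes had a higher mean in the knockouts, where 51.4% of all tested clusters did, but none of the differences passed a test against the spread between mice. By limma with Benjamini-Hochberg adjustment over all clusters, 0 of the 8 passed at 0.05, and 0 of 21789 clusters did (background 0%). At an unadjusted p under 0.05, 0 of the 8 passed against a background of 5.17%. In no gene did the knockouts and controls separate, where all knockouts lay above all controls in 1.62% of clusters and below them in 1.48%. The median difference was 0.26 log2 for the members and 0.0024 for all clusters, and without control 2 it was 0.154 for the members. Because most of the members moved together from mouse to mouse, as described further on, their shared direction is not 8 separate observations. Members and lists were also chosen with earlier results of these data known. The shares higher in knockouts, here and in the lists below, may therefore partly follow from that choice.

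**Figure D1:**
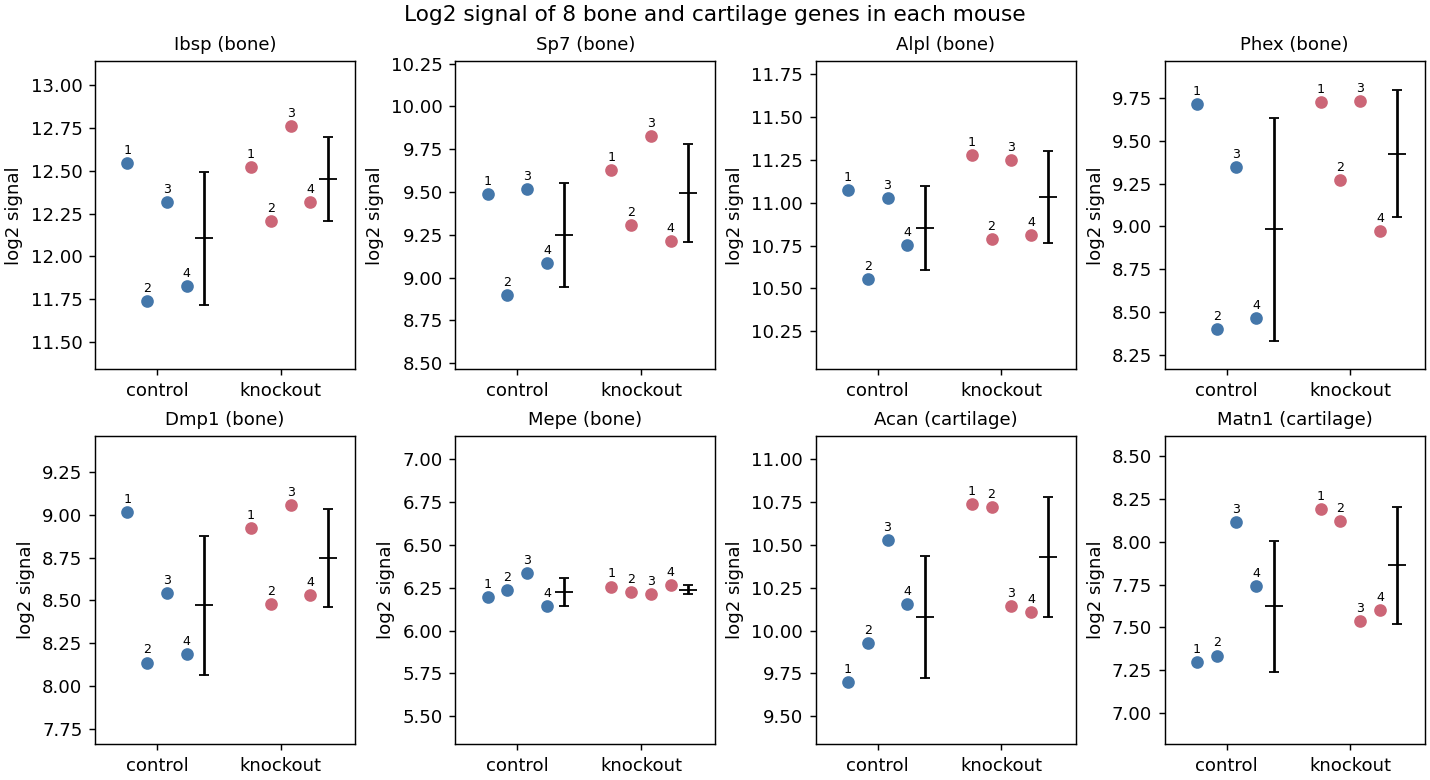
Log2 signal (y axis, 1.8 units tall in each panel) of the 8 measured genes in 4 control and 4 knockout mice; numbers name the mouse, and the bars beside the points are the mean and SD. Values of the groups overlap in every panel, and Mepe varies least.

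Ibsp, Dmp1 and Mepe lie side by side in 1 cluster of genes for acidic phosphoproteins of mineralised matrix on chromosome 5. In the RefSeq gene order it reads Sparcl1, Dspp, Dmp1, Ibsp, Mepe, Spp1. The bases just before the starts of these 3 genes, and of the cartilage gene Matn1, are shown because Mepe varied far less between mice than its neighbours Ibsp and Dmp1 and because Matn1, like Acan, followed another order of mice than they did. Whether the signal of Mepe was above background is not known, and no link between bases and spread or order was tested. Capitals mark TGTGGT or its complement ACCACA, the core letters that Runx factors bind, and TAATTA, the core letters of homeodomain sites. Each run is the 250 bases before an annotated start, on the strand of the gene, from RefSeq on GRCm38.p6.
Ibsp (chr5:104299037-104299286, plus strand): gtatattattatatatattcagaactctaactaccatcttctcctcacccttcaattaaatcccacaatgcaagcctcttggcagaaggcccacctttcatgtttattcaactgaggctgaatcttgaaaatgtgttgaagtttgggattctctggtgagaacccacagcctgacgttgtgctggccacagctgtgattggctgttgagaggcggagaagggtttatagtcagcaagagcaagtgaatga
Dmp1 (chr5:104202367-104202616, plus strand): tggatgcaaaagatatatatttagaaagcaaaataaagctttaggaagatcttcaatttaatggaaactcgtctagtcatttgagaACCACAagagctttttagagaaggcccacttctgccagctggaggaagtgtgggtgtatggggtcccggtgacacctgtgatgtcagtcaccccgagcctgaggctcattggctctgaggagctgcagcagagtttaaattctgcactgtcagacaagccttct
Mepe (chr5:104325079-104325328, plus strand): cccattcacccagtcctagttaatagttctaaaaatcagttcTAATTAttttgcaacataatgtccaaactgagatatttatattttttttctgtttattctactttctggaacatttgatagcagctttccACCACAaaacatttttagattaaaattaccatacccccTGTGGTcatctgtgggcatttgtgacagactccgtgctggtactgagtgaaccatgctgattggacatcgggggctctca
Matn1 (chr4:130944135-130944384, plus strand): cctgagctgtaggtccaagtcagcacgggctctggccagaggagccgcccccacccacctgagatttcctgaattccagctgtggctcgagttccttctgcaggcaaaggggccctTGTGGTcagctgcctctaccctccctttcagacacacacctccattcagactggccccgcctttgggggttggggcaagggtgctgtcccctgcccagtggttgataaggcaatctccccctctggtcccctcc

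Over 12 such windows of 9 of the 10 genes (Sp7 had no entry), TGTGGT was found on either strand in 5, against 14% of 32851 windows of all genes, and TAATTA in 2, against 4.84%. Windows of Spp1 and Runx2, genes without a measured signal, were among the 5, and a window of Spp1 was among the 2. TGCGGT, the other form of the Runx core, was in 0 of the 12 and in 5.1% of all windows. Mepe held TGTGGT on the opposite strand at 118 bases and on its own strand at 80 bases before the start, and TAATTA at 208 bases. Dmp1 held it on the opposite strand 164 bases before the second of its annotated starts, and Matn1 on its own strand at 134 bases. Ibsp held none of the 3 sets of letters in this window. Nor did the windows of Acan, Alpl and Phex or that before the first start of Dmp1, which are not shown. Acan, without a match, and Matn1, with a match, shared an order of mice, and whether the letters bear on that order was not tested. A match is a run of letters and not a measured binding site.

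Ibsp encodes bone sialoprotein, an acidic protein of newly mineralising bone matrix. Its log2 signal was 12.55, 11.74, 12.32 and 11.83 in controls 1 to 4 and 12.53, 12.21, 12.76 and 12.32 in knockouts 1 to 4. Controls 2 and 4 were the lowest mice and knockout 3 the highest, and control 1 lay among the knockouts. The difference was 0.35 ± 0.19 (SE; 95% interval -0.10 to 0.79), 1.27-fold, with a limma adjusted p of 0.910. Without control 2 it was 0.22, and without control 1 it was 0.49.

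Sp7 encodes osterix, a transcription factor needed for osteoblasts to form. Its log2 signal was 9.49, 8.90, 9.52 and 9.08 in controls 1 to 4 and 9.63, 9.31, 9.83 and 9.21 in knockouts 1 to 4. Again controls 2 and 4 were lowest and knockout 3 highest. The difference was 0.25 ± 0.18 (-0.16 to 0.65; limma adjusted p = 0.910), and it was 0.13 without control 2 and 0.33 without control 1.

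Alpl encodes tissue-nonspecific alkaline phosphatase, which removes pyrophosphate, an inhibitor of mineral growth. Log2 signals of 11.07, 10.55, 11.02 and 10.75 were measured in controls 1 to 4 and 11.28, 10.79, 11.25 and 10.81 in knockouts 1 to 4. The mice fell into a higher set of controls 1 and 3 with knockouts 1 and 3, and a lower set of both groups' mice 2 and 4. The difference of 0.18 ± 0.16 (-0.17 to 0.53; limma adjusted p = 0.910) was the smallest of the bone genes but for Mepe, and fell to 0.08 without control 2. It was 0.25 without control 1.

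Phex encodes an endopeptidase of osteoblasts and osteocytes that is tied to phosphate balance, and lies on the X chromosome. Controls 1 to 4 had log2 signals of 9.71, 8.40, 9.35 and 8.47, and knockouts 1 to 4 had 9.73, 9.27, 9.73 and 8.97. Phex had the widest range of the 8 genes, 1.33 log2 or 2.51-fold between control 2 and the highest knockout. Its mean difference was also the largest of the 8, at 0.44 ± 0.31, with the widest interval (-0.27 to 1.16; limma adjusted p = 0.910). It was 0.25 without control 2 and 0.69 without control 1.

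Dmp1 encodes dentin matrix protein 1, a phosphoprotein made largely by osteocytes. In controls 1 to 4 its log2 signal was 9.02, 8.14, 8.54 and 8.19, and in knockouts 1 to 4 it was 8.92, 8.48, 9.06 and 8.53. The order of mice was close to that of its neighbour Ibsp, with control 2 lowest, control 4 next and knockout 3 highest. The difference was 0.28 ± 0.21 (-0.20 to 0.76; limma adjusted p = 0.910), and it was 0.16 without control 2 and 0.46 without control 1.

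Mepe encodes matrix extracellular phosphoglycoprotein, an osteocyte product. Its log2 signal was 6.20, 6.23, 6.33 and 6.14 in controls 1 to 4 and 6.26, 6.23, 6.21 and 6.26 in knockouts 1 to 4. All 8 mice lay within 0.19 log2, and the order of mice was unlike that of the other bone genes, with control 3 highest and control 4 lowest. These signals lay below the array medians of 8.64 to 8.68, and whether they were above background is not known. The narrow spread and the order of mice may therefore not be those of Mepe RNA. The difference was 0.01 ± 0.05 (-0.10 to 0.13; limma adjusted p = 0.981), and it was -0.015 without control 4 and 0.016 without control 2. Dspp, the neighbour of Dmp1 known for dentin and named for its position, lay between 7.24 and 7.52 in all 8 mice, with a difference of -0.02 ± 0.06.

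Acan encodes aggrecan, the main proteoglycan of cartilage. Its log2 signal was 9.70, 9.92, 10.53 and 10.16 in controls 1 to 4 and 10.74, 10.72, 10.14 and 10.11 in knockouts 1 to 4. Here knockouts 1 and 2 were highest and control 1, which was high for bone genes, was lowest. The difference was 0.35 ± 0.21 (-0.13 to 0.83; limma adjusted p = 0.910). Leaving out 1 control moved it between 0.22 (without control 1) and 0.50 (without control 3), and it was 0.30 without control 2.

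Matn1 encodes matrilin-1, a filament protein of cartilage matrix. Controls 1 to 4 had log2 signals of 7.30, 7.34, 8.11 and 7.74, and knockouts 1 to 4 had 8.19, 8.12, 7.54 and 7.60. The order of mice was the same as for Acan except that knockouts 3 and 4 changed places. The difference was 0.24 ± 0.22 (-0.25 to 0.73; limma adjusted p = 0.912), 0.13 without control 1, 0.14 without control 2 and 0.40 without control 3.

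**Figure D2:**
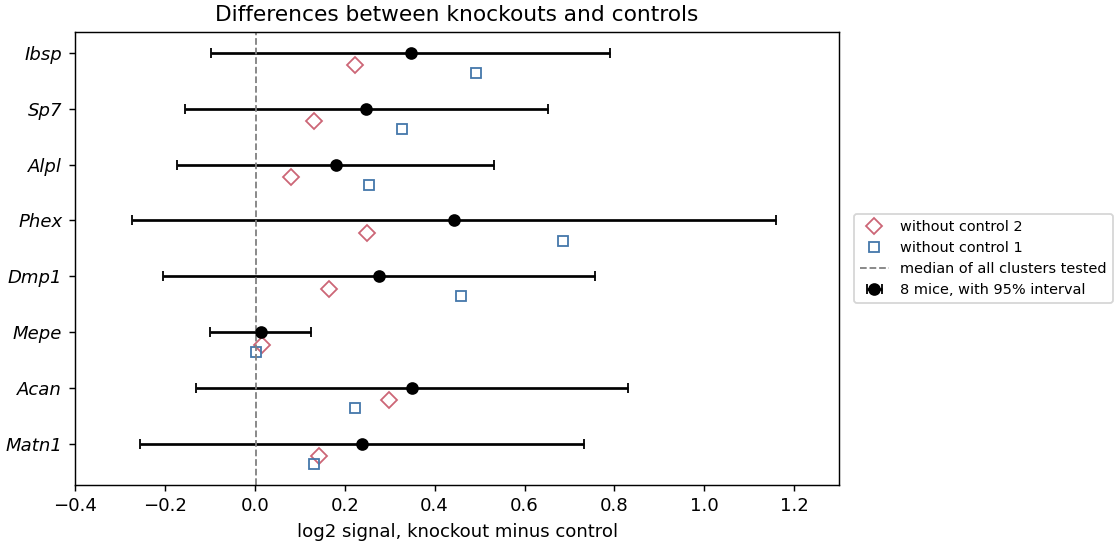
Mean log2 signal of knockouts minus controls for each gene (filled circles) with its 95% interval from limma, and the same difference without control 2 (diamonds) or without control 1 (squares). Every interval includes 0; leaving out control 2 lowers the differences of all but Mepe, and leaving out control 1 raises those of Ibsp, Sp7, Alpl, Phex and Dmp1 while it lowers those of Acan and Matn1.

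The spread between mice was wide for 7 of the 8 genes. The SD within groups, pooled over both, lay above that of 93.1% (Alpl) to 98.9% (Phex) of all clusters for every member but Mepe. Mepe, whose signal may not be above background, lay above 19.0%. The median of this SD was 0.338 log2 for the members and 0.097 for all clusters. For Ibsp the SD was 0.388 in controls and 0.245 in knockouts (n = 4 each), and for Phex it was 0.650 and 0.372. With 4 mice a group the 95% intervals of these 7 genes include no difference, and reach up to a fold of 1.45 (Alpl) to 2.23 (Phex).

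The bone genes other than Mepe, set apart here after its values had been seen, ranked the 8 mice in nearly the same order. Control 2 was lowest and control 4 second lowest in each of Ibsp, Sp7, Alpl, Phex and Dmp1, and knockout 3 was highest in 4 of them, with knockout 1 highest for Alpl. Over the 10 pairs of these 5 genes, Pearson's r across the 8 mice ran from 0.901 to 0.967 and Spearman's rho from 0.833 to 0.976. Exact permutation p for r, adjusted over the 28 pairs of members, was 0.00139 to 0.00631, and for rho it was 0.0037 to 0.0391. The highest r was between the neighbours Ibsp and Dmp1 (0.967). Their rho of 0.976 was equalled by Sp7 and Phex, which lie on chromosomes 15 and X. After leaving out the 2 mice farthest from the median of the first gene the pairs ran from r = 0.792 to 0.945, without control 2 from 0.840 to 0.958, and with each group centred on its own mean from 0.887 to 0.968, so every one of the 10 stayed above 0.79 under each of these changes.

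**Figure D3:**
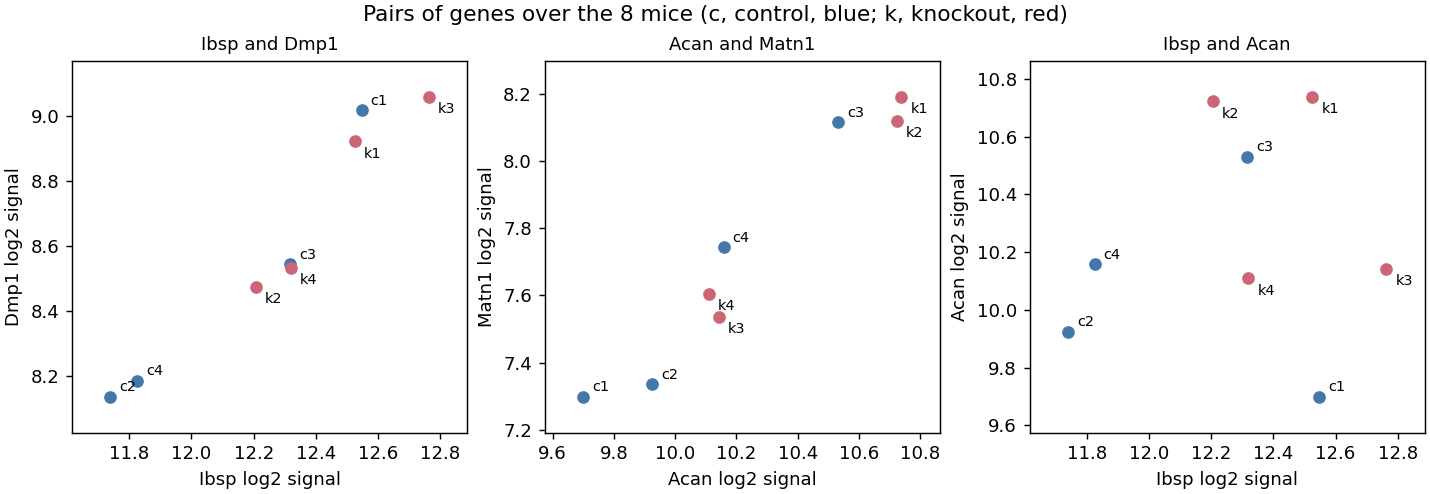
Log2 signals of 3 pairs of genes in the 8 mice (c, control; k, knockout; the number names the mouse). Ibsp and Dmp1 rise together (r = 0.967), as do Acan and Matn1 (r = 0.972), while Ibsp and Acan do not (r = 0.116), with control 1 high in Ibsp and lowest in Acan.

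Both cartilage genes shared another order. Acan and Matn1 correlated at r = 0.972 and rho = 0.976 (exact permutation p = 0.000149 for r, adjusted 0.00162), at 0.952 without the 2 mice farthest from the median and at 0.974 without control 2. Their mean, centred on the 8 mice, was -0.50, -0.37, 0.33 and -0.05 in controls 1 to 4 and 0.47, 0.42, -0.16 and -0.14 in knockouts 1 to 4. The mean of the 6 bone genes was 0.23, -0.45, 0.07 and -0.36 in controls and 0.28, -0.06, 0.37 and -0.09 in knockouts. Control 2 was low in both and knockout 1 high in both, while control 1 and knockout 3 were above their mean in bone genes and below it in cartilage genes, and knockout 2 was the other way round.

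Between the 5 bone genes and the 2 cartilage genes, r ran only from -0.0067 to 0.282 in 10 pairs, none past an exact permutation test (adjusted p 0.758 to 0.998). Without the 2 farthest mice these pairs spread from -0.51 to 0.76, so 8 mice fix neither a relation nor its absence. Mepe correlated with the other 7 at r of 0.0881 to 0.440 (adjusted p 0.625 to 0.904). In all, 11 of the 28 pairs passed, the 10 within bone and the 1 within cartilage.

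**Figure D4:**
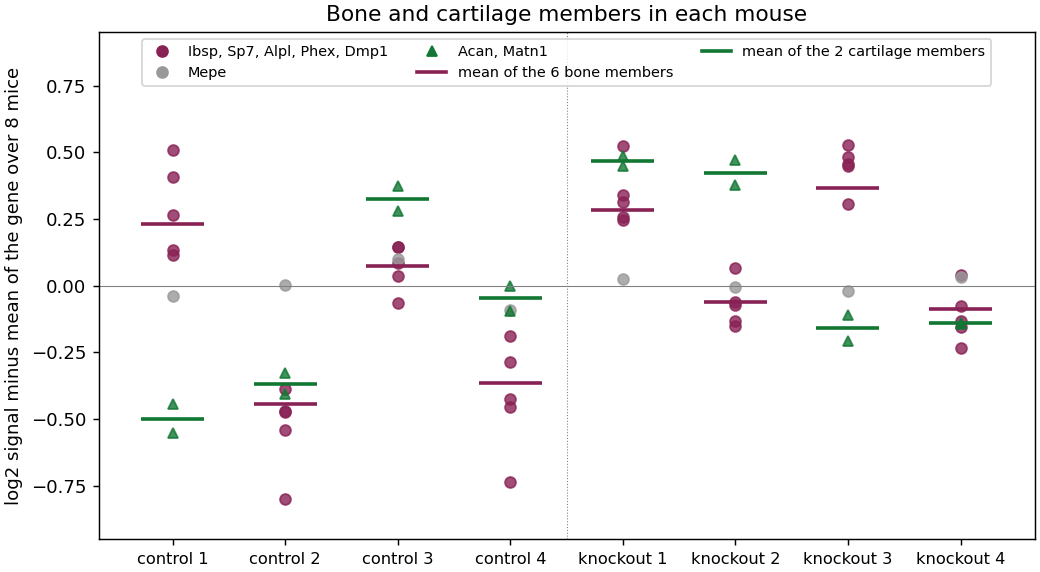
Log2 signal of each gene minus its mean over the 8 mice, by mouse; circles are bone genes (Mepe in grey), triangles cartilage genes and bars the means of the 6 bone and 2 cartilage genes. The bone mean lies above the cartilage mean in control 1, knockout 3 and, by a small margin, knockout 4. It lies below the cartilage mean in controls 2, 3 and 4 and in knockouts 1 and 2.

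Genes of other tissues also differed between mice, and their part in these orders was not tested. All 13 myeloid cell genes were highest in control 2, whose list mean was 10.21 log2 against 8.72 at the lowest in controls and 8.73 to 8.96 in knockouts, and all 9 measured cell division genes were lowest there, at a mean of 10.60 where the highest control had 11.19 and the knockouts 11.13 to 11.28. In control 1, where cartilage genes were lowest, 13 of 21 mature OSN genes were highest and Bowman gland genes, a secretory gland list of 10, had their highest mean, 12.64 log2, where the lowest control had 11.07 and the knockouts 11.19 to 11.74. The 3 measured red blood cell genes were lowest in control 2 and highest in control 1.

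Over the 8 mice several of these lists followed the members' means, and here too their part was not tested. With the mean of the bone members the median r was 0.74 for red blood cell genes, above that of any skeletal list, 0.58 for cell division genes and -0.61 for myeloid cell genes. With the mean of the cartilage members it was 0.67 for fibroblast genes and -0.65 for mature OSN genes, which had 0.11 with the bone mean.

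Further skeletal genes, 120 in 7 lists of which 113 were measured, gave no call between genotypes either. Knockout means were higher for 86 and lower for 27, and 0 passed limma's adjustment (lowest adjusted p = 0.739). At an unadjusted p under 0.05 there were 9 higher and 2 lower, against backgrounds of 2.62% and 2.55% of clusters. All knockouts lay above all controls in 2 of the 113, 1 osteoclast and 1 signalling gene, where 1.62% of clusters did. All knockouts lay below all controls in 2, Galnt3 and Bmp6, where 1.48% of clusters did, so both counts were near the background. The median difference of the 113 genes was 0.09, below that of the members, and without control 2 it was 0.06, with 79 higher and 34 lower. By list, the median without control 2 was -0.041 for mineralisation genes, 0.153 for chondrocyte genes and 0.130 for skeletal collagens. It was 0.075 for osteoclast genes, 0.046 for skeletal signalling genes and 0.262 for tooth genes, and that of osteoblast and osteocyte genes follows.

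The osteoblast and osteocyte list had 14 of 19 measured genes higher (median 0.09, 0 called), but without control 2 only 11 were, with a median of 0.01. Postn, encoding periostin, a matrix protein of periosteum, had its smallest p, at 12.21 to 12.59 in controls and 12.52 to 12.96 in knockouts (0.36 ± 0.11, limma adjusted p = 0.869). Sparc, encoding osteonectin, differed by 0.09 ± 0.06. The mineralisation list was split, with 4 of 10 genes higher and 6 lower (median -0.03). Galnt3, a glycosyltransferase that protects the phosphate hormone FGF23, lay below all controls in every knockout but did not pass (-0.17 ± 0.06, limma adjusted p = 0.876). Anxa5, an annexin, differed by -0.06 ± 0.05, and by -0.03 without control 2.

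Among chondrocyte genes 19 of 23 were higher (median 0.11, 0 called). Epyc, encoding the cartilage proteoglycan epiphycan, differed by 0.39 ± 0.17 and Papss2, which makes the sulphate donor for proteoglycans, by 0.11 ± 0.06. Of 12 skeletal collagens, 11 were higher (median 0.18), among them Col11a1 at 0.27 ± 0.11 and Col1a1 at 0.19 ± 0.13, which was 0.11 without control 2. Of 16 osteoclast genes, 12 were higher (median 0.10), and Ctsk, encoding the bone-resorbing protease cathepsin K, differed by 0.35 ± 0.12. None of these passed (limma adjusted p = 0.910 for each gene named).

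Skeletal signalling genes had 21 of 25 higher with a median of only 0.04. Bmp6, a bone morphogenetic protein, had the smallest p of all 113 genes and lay at 10.72 to 10.86 in controls and 10.40 to 10.67 in knockouts, below every control (-0.24 ± 0.07, limma adjusted p = 0.739), and Sfrp2, an extracellular Wnt inhibitor, differed by 0.10 ± 0.09. The 8 tooth genes were higher in 5, with the largest median (0.31) and the largest median SD (0.418) of the skeletal lists. Ambn, encoding the enamel protein ameloblastin, was at 7.01, 6.87, 8.06 and 7.26 in controls 1 to 4 and 8.96, 7.26, 7.94 and 8.71 in knockouts 1 to 4 (0.92 ± 0.39, limma adjusted p = 0.910), and Odam, an ameloblast gene, ranged from 7.41 to 10.49 (0.49 ± 0.72).

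Set against the bone and cartilage profiles of the members, these lists differed in which they followed. Across the 8 mice, 22 of 23 chondrocyte genes correlated more closely with the cartilage mean than with the bone mean (median r 0.71 and 0.07), and 11 of 19 osteoblast and osteocyte genes more closely with the bone mean (median 0.63 and 0.20). Of all 21781 clusters outside the members, 52.5% were nearer the cartilage mean and 47.5% nearer the bone mean. The chondrocyte count was not particular to that list, since 9 of 10 fibroblast, 12 of 13 myeloid, 11 of 11 muscle and 7 of 7 endothelial genes were also nearer the cartilage mean, though with lower median r (0.67, -0.31, 0.36 and 0.36). Skeletal collagens had a higher median r with the cartilage mean than chondrocyte genes, 0.82, and 0.51 with the bone mean. Of these 12 collagens, 8 were nearer the cartilage mean. Skeletal signalling genes had medians of 0.43 with the bone mean and 0.38 with the cartilage mean, and tooth genes 0.18 and 0.50. Osteoclast genes, which belong to cells of the blood lineage that resorb bone, had a median r of 0.43 with the bone mean and -0.21 with the cartilage mean, 11 of 16 being closer to bone. The osteoblast and osteoclast counts were not particular to those lists either. Nearer the bone mean were also 21 of 21 mature OSN, 5 of 6 sustentacular, 7 of 9 cell division, 7 of 10 Bowman gland and 3 of 3 red blood cell genes. Their median r with it was 0.11, 0.48, 0.58, 0.10 and 0.74. Mineralisation genes as a list followed neither (medians -0.16 and 0.17), but its genes were split. Single genes ran from -0.68 to 0.84 with the bone mean and from -0.73 to 0.60 with the cartilage mean. These correlations are descriptions over the same 8 arrays, and genes of a list are not independent of each other.

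**Figure D5:**
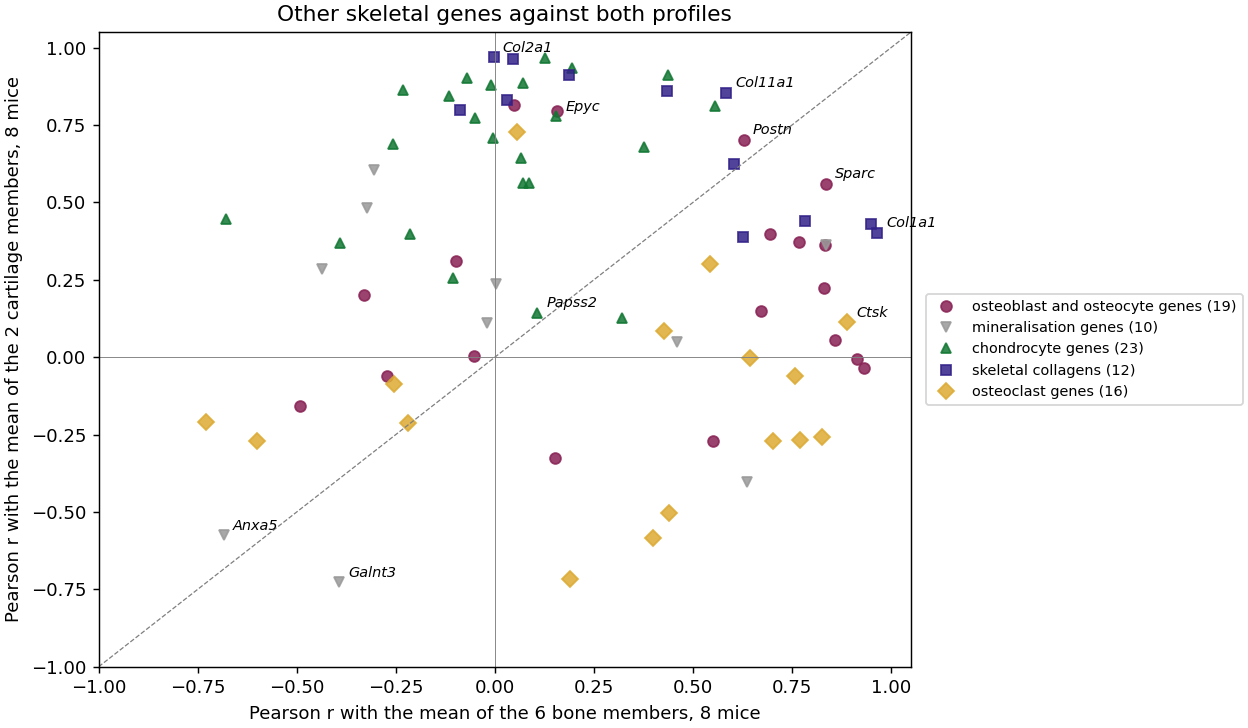
Pearson's r over 8 mice of each gene in 5 skeletal lists with the mean of the 6 bone members (x axis) and with the mean of the 2 cartilage members (y axis); the dashed line marks equal r, and named genes are those given in the text. Chondrocyte genes (triangles pointing up) lie above the line but for 1, and most osteoclast and many osteoblast genes below it.

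Of the 21781 clusters outside the members, the 5 whose signal followed the mean of all 8 members most closely were Ptgis (prostacyclin synthase; r = 0.986 over 8 mice), Col1a1 (0.980), Col1a2 (0.976), Slc13a5 (a citrate transporter; 0.975) and Tnc (tenascin C; 0.956). Without control 2 these were 0.983, 0.969, 0.958, 0.959 and 0.946. In all, 34 clusters (0.156%) exceeded r = 0.9. Taken separately after values had been seen, the bone mean was followed most closely by Zfp711 (0.998), Akap9, Car3, Nol8 and Col1a1 (0.965 for the last), and the cartilage mean by Col2a1 (0.969), Cnmd, Col9a1, Cldn13 and Glt8d2 (0.960 for the last). Col2a1, the main collagen of cartilage, was at 10.11, 10.48, 10.97 and 10.61 in controls 1 to 4 and 10.98, 10.99, 10.44 and 10.53 in knockouts 1 to 4, with control 1 lowest as for Acan and Matn1.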

How the data were processed

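The authors hybridised RNA of 8 olfactory mucosae to 8 arrays and deposited log2 signals, 1 per transcript cluster, which combine the probes of all exons. Affymetrix Expression Console is named in the submitters' processing notes, and its version and algorithm are not given in the sources used here. Values ran from 2.65 to 14.9 and were neither transformed nor normalized again. Arrays give signals and not counts, so the number of arrays limits the precision, and signals of different genes are not ranked as expression.

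Of 35557 clusters, 21789 were annotated with 1 gene and tested, 1621 had several genes and 12147 were unnamed. Of the tested clusters, 21698 matched the RefSeq gene table of GRCm38.p6. Where a gene had several clusters, that of the highest mean was used. Groups came from the labels and replicate numbers from accession order. Litters are not labelled, so they could not enter a fit.

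The genotypes were compared by limma (version 3.58.1 under R 4.3.3), two-sided, with Benjamini-Hochberg adjustment over all tested clusters. The fit was tested on simulated data in which clusters varied independently of each other, unlike most of the measured members. Pairs of members were compared by two-sided exact permutation of the 8 mice, adjusted over 28 pairs. Genes named were the members, Emx2, the gene of smallest p and of highest mean signal in each skeletal list (the latter only to choose a name), the 5 clusters most correlated with the members' mean, and Omp with the first 2 measured genes of each list for other cells. Dspp and the genes nearest the bone mean or the cartilage mean alone were chosen after values were seen. Of the genes for other cells, Gnal (0.04), Adcy3 (-0.04), Cyp2g1 (0.004), Ermn (0.07), Bpifb9b (0.05), Bpifb9a (0.12), Acta1 (-0.02), Myh3 (0.01), Cd68 (0.04), Aif1 (-0.02), Alas2 (0.26), Epb42 (0.03), Pecam1 (0.12), Cdh5 (0.10), Pdgfra (0.20), Pdgfrb (0.13), Mki67 (0.31), Top2a (0.25), Eif2s3y (-2.04), Kdm5d (-1.49) and Omp (-0.27) differed by the log2 values in brackets, none past adjustment. The members and lists were chosen with earlier results of these data known. Alternatives were quantile normalization, scaling to a list of mature OSN genes (21 measured, not the larger set that the study's methods use), the methods' t-test, array weights, an intensity trend, a signal filter, the mean of a gene's clusters, Y-linked signal as a covariate and leaving out each mouse.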

Additional observations from a re-analysis of the deposited data

Results flagged for a closer look

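Of 84 sets of 4 mice checked for a single mouse far from the others, 2 held one, and chance alone gives about 1 in 20. The centred mean of the osteoclast genes in control 1 was 0.133 log2, where the other controls lay between -0.139 and -0.108. The centred mean of the myeloid cell genes in control 2 was 1.20 log2, where the other controls lay between -0.290 and -0.143. Control 2 is also the mouse with the lowest signal of Ibsp, Sp7, Alpl, Phex and Dmp1, and control 1 that with the lowest Acan and Matn1.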

How the results depend on the processing

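No member and no other skeletal gene passed adjustment under any of the 16 alternatives, with adjusted p for the members from 0.621 to 1.00. The median difference of the members lay between 0.154 (without control replicate 2) and 0.370 (without control replicate 3) when 1 mouse was left out, and between 0.222 and 0.365 under the others. The highest of the latter came with scaling to mature OSN genes, which moved the median of all clusters to 0.105 and put 89.0% of clusters higher in knockouts. The number of members higher in knockouts was 7 to 8 when 1 mouse was left out, the 7 being without control replicate 4, where the Mepe difference turned to -0.0148 (its range over the mice left out ended at 0.0492). With clusters above the median signal alone it was 5, since only 5 members were left to test. At an unadjusted p under 0.05 there were 3 members without control 1, 1 without control 3 and 1 with scaling to mature OSN genes, against 0 with all mice. Other skeletal genes at that level numbered 11 with all mice, 5 by the methods' t-test, 20 with scaling to mature OSN genes, 25 without control 3, 5 without control 2 and 4 without control 4. The count of member pairs that passed stayed between 10 and 12, an alternative chosen after seeing the data, as was that of the members' median pooled SD (0.286 to 0.352 log2). No paired analysis was possible because the labels give no replicate numbers that the groups share. Signal over background could not be judged, so it is not known whether Mepe was above it.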
